A study of Anas platyrhynchos with 6 samples.

Results

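The miR-101 family in the duck duodenum was described from every miRNA name that, without its species prefix, read miR-101 with or without a letter, a copy number or an arm. The rule found 16 of the 1568 names in the files, and 12 distinct sets of reads among them, since some names had the same reads in all 6 libraries. The rule used names only, but the family was selected on its known RPM values in these same libraries, mainly the high value of mmu-miR-101b-3p and the low value of hsa-miR-101-3p in one CR library. The levels are therefore a description, and no test was made on them for support.

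Small RNA was sequenced from the duodenum of Nonghu No. 2 ducks in 3 libraries of the CR group ("cage raring" in the labels), moved to cages, and in 3 libraries of the TB group (traditional breeding), kept on the floor. All ducks were selected at 90 days of age and were fed on the floor for a week. A trial of 10 days followed, with 4 replicates of 8 ducks in each group. Apart from the housing, the methods give both groups the same external environment, feeding management and amount of food. The paper reports that CR ducks ate less and had a lower body weight than TB ducks. The labels name intestinal epithelial cells, whereas the study's methods describe a washed segment of the duodenum, so the libraries may hold the whole wall. The labels do not say which of these replicates or which duck a library came from, and the spread between libraries may in part be technical.

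MicroRNAs are cut from a hairpin with a 5′ and a 3′ arm, of which 1 is usually kept in the silencing complex and the other is degraded. The mature miR-101 comes from the 3′ arm, and in human and mouse it is made from more than 1 gene copy, marked by numbers or letters in the names. In human cells miR-101 is known for repressing EZH2, the methyltransferase of the Polycomb repressive complex, and PTGS2 (COX-2), an enzyme of prostaglandin synthesis. Most names here carry the prefix of another species, such as hsa (human), mmu (mouse), rno (rat), efu (big brown bat), cfa (dog) or dre (zebrafish), and stand for the entry under which duck reads were counted. A read can have been counted under several near-identical names, so the levels of names are not added here.

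Summed over all names, the counts were 1500905 (CR replicate 2) to 11395209 reads (CR replicate 1). A read counted under several names would enter these sums more than once. Values are given in RPM, reads of a name in every 1000000 reads of this sum. A single read was worth 0.666 RPM in CR replicate 2 and 0.0878 to 0.175 RPM in the other libraries. CR replicate 2 and TB replicate 1 stood apart from the rest. Across the 662 miRNA names that reached 10 reads in 3 or more libraries, their correlation with each other was 0.968, their correlations with the other 4 libraries were 0.737 to 0.818, and those among the other 4 were 0.982 to 0.992 (Pearson, log2(RPM + 1), across names). Because 1 of these libraries lies in each group, the levels of the family are given below for single libraries. The summed level of 3 smooth muscle miRNAs (miR-143-3p, miR-145-5p, miR-133a-3p) was 86724 (CR replicate 2) to 186519 RPM in CR and 113309 (TB replicate 1) to 154218 RPM in TB, and that of 7 intestinal epithelial miRNAs was 33050 (CR replicate 2) to 136728 RPM in CR and 42070 (TB replicate 1) to 184710 RPM in TB. The muscle sum was almost all miR-143-3p, which ranged from 84961 to 185896 RPM over the libraries. Its other members, miR-145-5p (559 to 1490 RPM) and miR-133a-3p (64.6 to 907 RPM), were far lower. Unlike the sum, both were highest in the pair of libraries that stood apart. The muscle sum therefore follows 1 miRNA and does not show whether these libraries held less muscle. Of the 3 muscle miRNAs, miR-143-3p was thus by far the most abundant in libraries labelled as epithelial cells. The epithelial sum rested mainly on miR-215-5p (11200 to 143915 RPM over the libraries) and miR-194-5p (11480 to 34853 RPM). Of its 7 members, 3 were lowest in the pair of libraries that stood apart and 2 were highest there. This sum likewise does not show whether these libraries held less epithelium.

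The abundant member was the 3′ arm. hsa-miR-101-3p, the mature miR-101 of human, had 5331, 768 and 7828 RPM in CR replicates 1 to 3, against 733, 8426 and 9056 RPM in TB replicates 1 to 3. The low values belonged to CR replicate 2 and TB replicate 1, and the other 4 libraries had at least 5331 RPM. The groups overlapped. In the libraries with high values it made up 0.533% to 0.906% of the reads summed over all names and ranked between 8 and 21 among the 1568 names. In CR replicate 2 and TB replicate 1 it made up 0.0768% and 0.0733% and ranked 141 and 130. These values rested on 1153 to 81633 reads, and counting error was small beside the difference, with an exact 95% Poisson interval of 724 to 814 RPM in CR replicate 2 and 711 to 756 RPM in TB replicate 1. In bulk tissue, fewer cells that express the miRNA and less of it per cell cannot be told apart.

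Between libraries of the same group the difference was large. hsa-miR-101-3p was 6.94 times lower in CR replicate 2 than in CR replicate 1 and 10.2 times lower than in CR replicate 3. In TB replicate 1 it was 11.5 times lower than in TB replicate 2 and 12.4 times lower than in TB replicate 3. CR replicate 2 over TB replicate 1 gave a ratio of 1.05. Among the other 4 libraries, the ratios of CR over TB were 0.589 to 0.929. These ratios rest on 2 libraries a side, left after 2 were set aside in these same data. How many of all names were lower in all such pairs was not counted. No difference between the groups is therefore read from them. On log2(RPM + 1), 61 and 49 of the 662 names were as low or lower in CR replicate 1 over TB replicates 2 and 3. In CR replicate 3 over the same libraries these counts were 533 and 374, so that most names were as low or lower there. They include the name itself.

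The other abundant names moved with it. efu-miR-101 had 5087, 762 and 7557 RPM in CR, against 716, 7991 and 8657 RPM in TB, which was 94.8% to 99.1% of the reads of hsa-miR-101-3p in the same library. cfa-miR-101 had 2421, 452 and 3545 RPM in CR, against 375, 3692 and 3717 RPM in TB. Relative to hsa-miR-101-3p, cfa-miR-101 had 45.4%, 58.9% and 45.3% as many reads in CR replicates 1 to 3 and 51.1%, 43.8% and 41.0% in TB replicates 1 to 3, so that its share was highest in CR replicate 2 and TB replicate 1. Both names had fewer reads than hsa-miR-101-3p in each of the 6 libraries. Whether these are the same reads under several names was not analysed here.

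**Figure D1:**
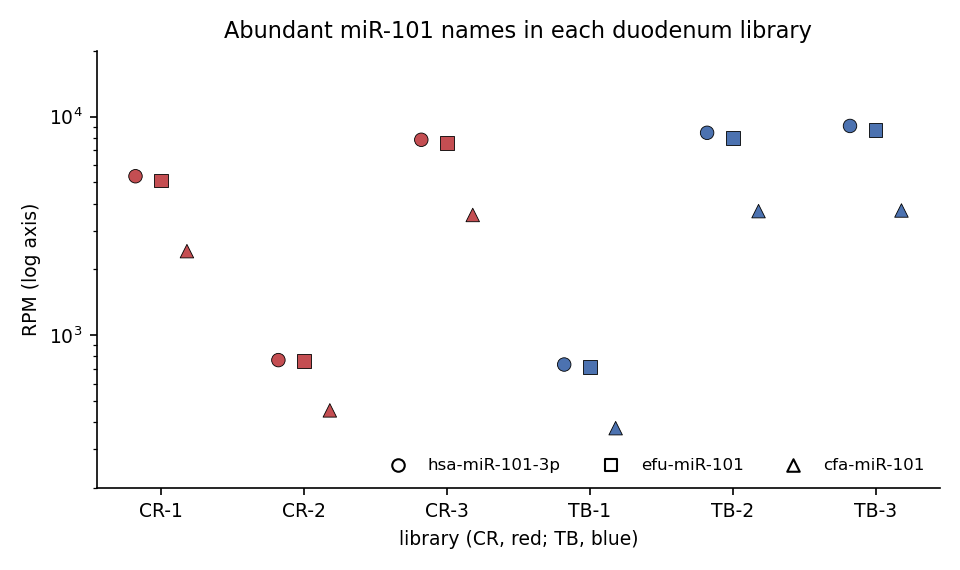
RPM (y axis, logarithmic) of the 3 abundant miR-101 names in each library (x axis), 3 CR libraries in red and 3 TB libraries in blue, 1 point for each name and library. In CR-2 and TB-1 hsa-miR-101-3p stood at 768 and 733 RPM, whereas the lowest of the rest was 5331 RPM, and efu-miR-101 and cfa-miR-101 followed the same pattern.

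The 5′ arm was rare. hsa-miR-101-5p had 1.14, 0.666 and 0.700 RPM in CR replicates 1 to 3, against 0.701, 0.214 and 1.44 RPM in TB replicates 1 to 3, from 13, 1 and 7 reads in CR and 4, 2 and 13 reads in TB. mmu-miR-101a-5p had the same reads except for 1 more in CR replicate 3. The values of CR replicate 2 and TB replicate 1 lay within the range of the other libraries, unlike those of the 3′ arm. For each read of hsa-miR-101-5p there were 4673, 1153 and 11181 reads of hsa-miR-101-3p in CR replicates 1 to 3 and 1046.5, 39346 and 6279 in TB replicates 1 to 3.

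Relative to the 3′ arm, the 5′ arm thus had its highest point values in CR replicate 2 and TB replicate 1, but on only 1 and 4 reads. In both libraries the 3′ arm itself was low. Per 1000000 reads of hsa-miR-101-3p there were 867 reads of hsa-miR-101-5p in CR replicate 2 (95% Clopper-Pearson interval 21.9 to 4842) and 956 in TB replicate 1 (260 to 2448). CR replicates 1 and 3 had 214 (114 to 366) and 89.4 (36.0 to 184), and TB replicates 2 and 3 had 25.4 (3.08 to 91.8) and 159 (84.8 to 272). The interval of CR replicate 2 includes the values of all other libraries. That of TB replicate 1 lies above the intervals of CR replicate 3 and TB replicate 2 and overlaps the others. These intervals cover counting error only.

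The remaining 5′ names carry a copy number. gga-miR-101-1-5p (chicken), tgu-miR-101-1-5p (zebra finch) and aca-miR-101-2-5p (anole lizard) had the same reads, 1, 0 and 1 in CR replicates 1 to 3 and 2, 0 and 0 in TB replicates 1 to 3. pal-miR-101-2-5p had 1 read in all, in TB replicate 3. The depth did not allow a comparison of gene copies from these names.

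Names with a letter fell into patterns that differed from each other. mmu-miR-101b-3p, the mature product of the miR-101b gene of the mouse, had 0.527, 22.7 and 0.900 RPM in CR replicates 1 to 3, against 1.93, 1.61 and 1.55 RPM in TB replicates 1 to 3. rno-miR-101b-3p of the rat had exactly the same reads. The value of CR replicate 2 came from 34 reads and had a 95% Poisson interval of 15.7 to 31.7 RPM, above the highest upper bound of the other 5 libraries, 3.45 RPM in TB replicate 1. These intervals cover counting error only. The family was selected on this high value, so its place above the others is a description. The value of CR replicate 2 was 43.0 times that of CR replicate 1, 25.2 times that of CR replicate 3 and 11.8 times that of TB replicate 1. On log2(RPM + 1), 89, 163 and 7 of the 662 tested names were as high or higher in these comparisons. The counts include the name itself and rno-miR-101b-3p. The other 5 libraries had 6 to 15 reads each, and CR replicates 1 and 3 had the lowest values. The groups overlapped, with the highest and the lowest value both in CR.

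mmu-miR-101c, like the abundant names, had its lowest values in CR replicate 2 and TB replicate 1. It had 4.21, 0.666 and 11.1 RPM in CR replicates 1 to 3, against 0, 3.85 and 7.99 RPM in TB replicates 1 to 3, from 48, 1 and 111 reads in CR and 0, 36 and 72 reads in TB. The 0 in TB replicate 1 allows up to 0.526 RPM. The 1 read of CR replicate 2 had an interval of 0.0169 to 3.71 RPM, which overlaps those of CR replicate 1 and TB replicate 2. Levels differed within the other 4 libraries as well, with the interval of CR replicate 3 (9.13 to 13.4 RPM) above those of CR replicate 1 (3.11 to 5.58 RPM) and TB replicate 2 (2.70 to 5.34 RPM).

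The names of miR-101b from fish were rarer still. dre-miR-101b and ola-miR-101b-3p (medaka) shared their reads, at 0.263, 0 and 0.5001 RPM in CR replicates 1 to 3, against 0, 0.857 and 1.55 RPM in TB replicates 1 to 3. ipu-miR-101b (channel catfish) had 0.176, 0 and 0.300 RPM in CR, against 0, 0.535 and 1.22 RPM in TB. Unlike mmu-miR-101b-3p, these names had no read in CR replicate 2, where a count of 0 allows up to 1.999 RPM, more than any other library had. cin-miR-101 (sea squirt) had 1 read each in TB replicates 1 and 3 and none elsewhere.

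**Figure D2:**
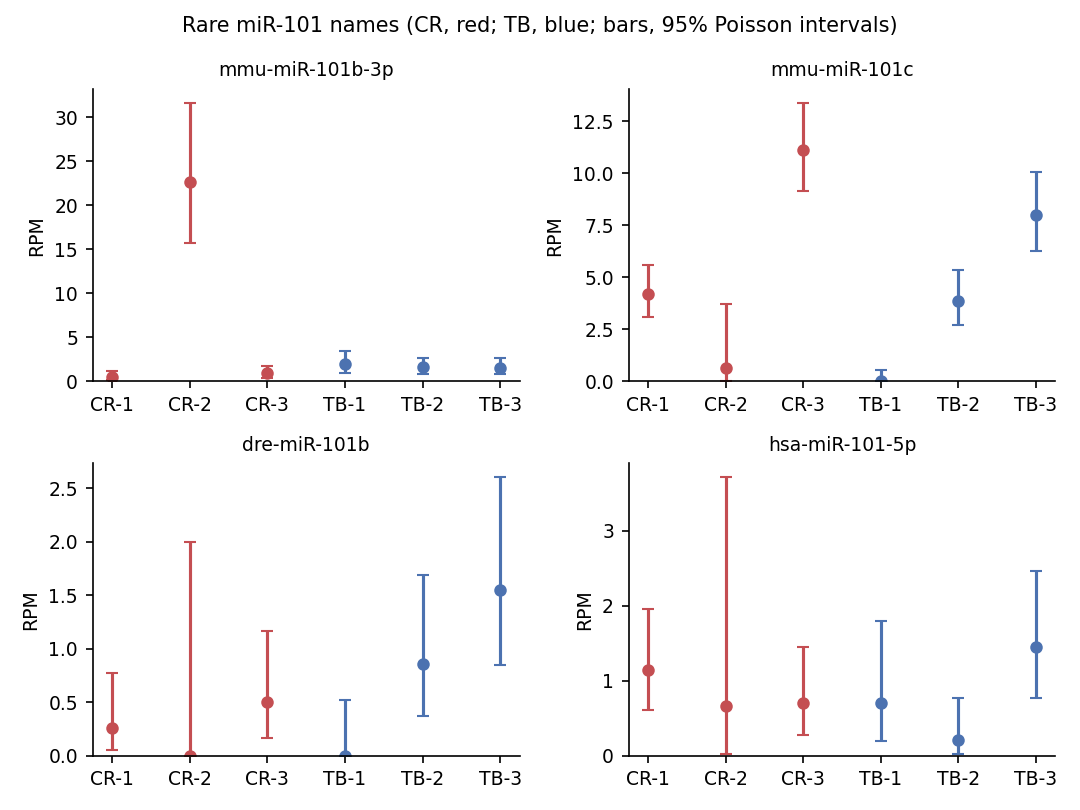
RPM (y axis) of 4 rare miR-101 names in each library (x axis), CR in red and TB in blue, with 95% Poisson intervals as bars (for 0 reads, the limit of 3 reads). mmu-miR-101b-3p reached 22.7 RPM in CR-2 and at most 1.93 RPM elsewhere, mmu-miR-101c was lowest in CR-2 and TB-1, and the intervals of dre-miR-101b and hsa-miR-101-5p are wide.

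Taken relative to hsa-miR-101-3p, the rare names separated. Per 1000000 reads of hsa-miR-101-3p, mmu-miR-101b-3p had 98.8, 29488 and 115 reads in CR replicates 1 to 3, against 2628, 191 and 171 reads in TB replicates 1 to 3. The values of CR replicate 2 (95% Clopper-Pearson interval 20321 to 41448) and TB replicate 1 (1311 to 4707) were above those of the other 4 libraries, whose highest upper bound was 314. These intervals cover counting error only. The family was selected on both values that form this ratio in CR replicate 2, so its height there is a description and no support. In TB replicate 1 the abundant name was low and the RPM of mmu-miR-101b-3p was close to that of the other TB libraries. In CR replicate 2 the abundant name was low and the rare name was high.

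mmu-miR-101c did not reach the high shares of mmu-miR-101b-3p in CR replicate 2 and TB replicate 1, where it had 1 and 0 reads. Per 1000000 reads of hsa-miR-101-3p it had 790.2, 867 and 1418 reads in CR replicates 1 to 3, against 0, 457 and 882 reads in TB replicates 1 to 3, where the 0 of TB replicate 1 allows up to 717. Its value in CR replicate 2 rests on 1 read. Among the libraries with at least 36 reads the share of CR replicate 3 was the highest and lay above the intervals of the others.

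**Figure D3:**
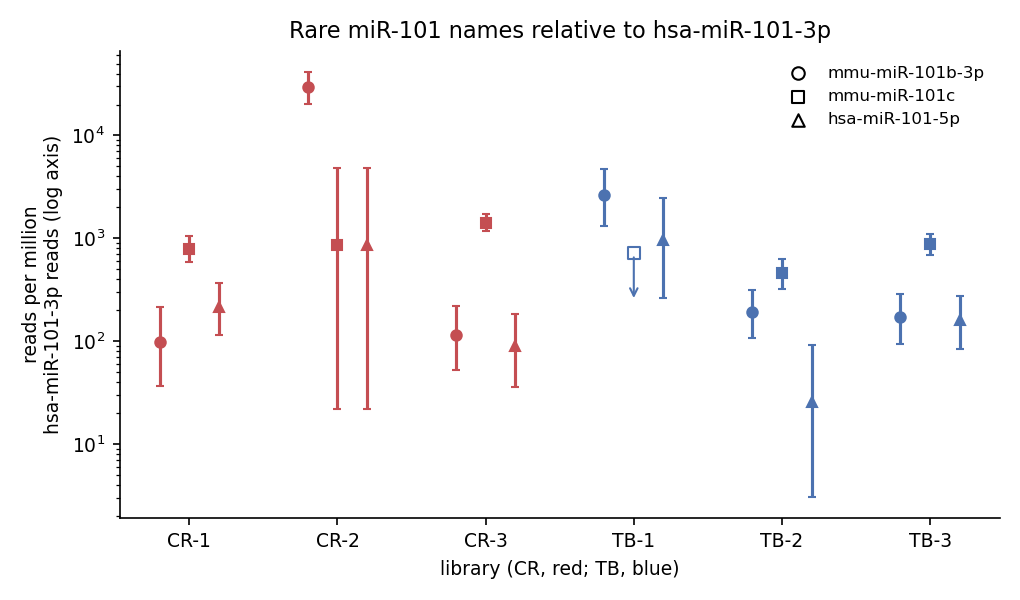
Reads of 3 rare miR-101 names per 1000000 reads of hsa-miR-101-3p (y axis, logarithmic) in each library (x axis), CR in red and TB in blue, with 95% Clopper-Pearson intervals as bars and an open symbol with an arrow for the limit of 3 reads where no read was counted. mmu-miR-101b-3p stood at 29488 in CR-2 and 2628 in TB-1, against 98.8 to 191 elsewhere, while mmu-miR-101c lay between 457 and 1418 wherever it had reads.

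The comparison of the study, CR over TB, was fitted with limma on log2(RPM + 1) over all 662 names with enough reads, of which 6 belonged to the family, with 5 distinct sets of reads. The other 10 names had 41 reads or fewer over all libraries. Of the 662 names, 0 had an adjusted p under 0.05 (0%) and 0 an unadjusted p under 0.05 in limma, while edgeR and DESeq2 each had 0 adjusted and 5 unadjusted. Accordingly 0 of the 6 family names passed. In 2.27% of all tested names the groups did not overlap, and this was the case for 0 of the 6. The standard errors of this fit include the difference of CR replicate 2 and TB replicate 1 from the other libraries. With a term for these libraries in limma, 32 of the 662 names (4.83%) had an unadjusted p under 0.05. That share is near the one this threshold gives without any group difference, so the count does not show that the groups differed. The standard error of hsa-miR-101-3p was then 0.34, against 1.31 without the term. With standard errors as large as those without the term, the 0 calls do not show that the groups were alike.

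The group means lay within the spread of the libraries. hsa-miR-101-3p averaged 4642 ± 3580 RPM in CR and 6072 ± 4634 RPM in TB (SD, n = 3 each), a log2 fold change of -0.27 with a standard error of 1.31. For efu-miR-101 and cfa-miR-101 the log2 fold changes were -0.25 (standard error 1.30) and -0.14 (standard error 1.21). mmu-miR-101b-3p averaged 8.03 ± 12.7 RPM in CR and 1.70 ± 0.20 RPM in TB, a log2 fold change of 0.61 with a standard error of 1.09 on the log2(RPM + 1) scale. With a pseudocount of 0.1 it was 0.44 and with 10 it was 0.41. mmu-miR-101c averaged 5.33 ± 5.31 RPM in CR and 3.95 ± 3.99 RPM in TB, a log2 fold change of 0.42 with a standard error of 1.09.

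The signs of these fold changes depended on single libraries. Without CR replicate 2 the log2 fold change was 0.76 for hsa-miR-101-3p and -0.66 for mmu-miR-101b-3p. Leaving out TB replicate 2 or TB replicate 3 also turned the sign of hsa-miR-101-3p, to 0.30 and 0.35. Without TB replicate 1 it was -1.46. When both CR replicate 2 and TB replicate 1 were left out, hsa-miR-101-3p had -0.44 (standard error 0.37) and mmu-miR-101b-3p -0.60 (standard error 0.39), and neither passed the threshold. The median over all 662 tested names was then -0.11.

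**Figure D4:**
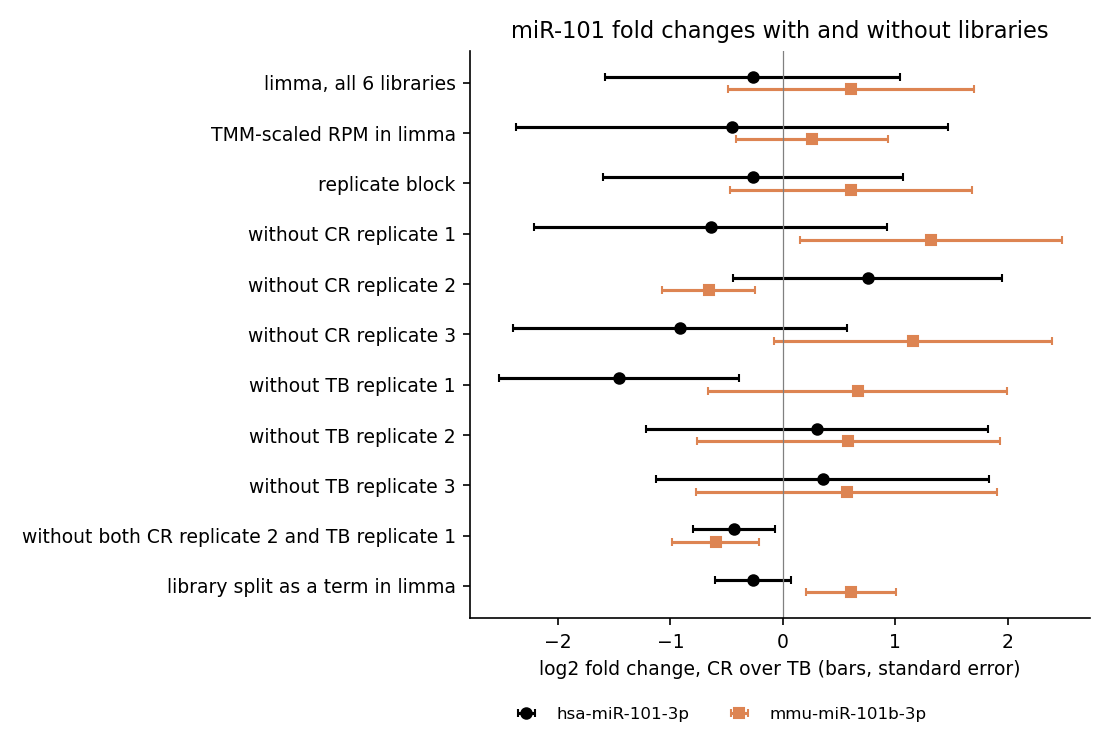
Log2 fold change of CR over TB (x axis) for hsa-miR-101-3p and mmu-miR-101b-3p in limma, with standard errors as bars, for all 6 libraries and for fits with other settings or fewer libraries (y axis). With all libraries the values were -0.27 and 0.61, and without CR replicate 2 they were 0.76 and -0.66.

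The miRNAs with the pattern most like that of hsa-miR-101-3p were found among 472 names outside the family with a mean of at least 10 RPM, by Pearson's correlation of log2(RPM + 1) over the 6 libraries. The 5 nearest, each miRNA number taken once, were bta-miR-142-3p, hsa-miR-215-5p, gga-miR-32-5p, rno-miR-218b and hsa-miR-19a-3p, with correlations of 0.975 to 0.9996. In each of them CR replicate 2 and TB replicate 1 were the lowest libraries. hsa-miR-215-5p, an abundant miRNA of the intestinal epithelium, had 91467, 12535 and 106975 RPM in CR, against 11200 (TB replicate 1), 103047 and 143915 RPM in TB. bta-miR-142-3p, a name of the blood cell miRNA miR-142, had 38.2, 1.999 and 62.7 RPM in CR, against 2.10, 75.9 and 82.4 RPM in TB. These correlations rest on the separation of those libraries from the other 4.

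That pattern was common in the libraries. Of the 662 tested names, 144 (21.8%) had their lowest values in CR replicate 2 and TB replicate 1, and 379 (57.3%) their highest. These shares count names with identical reads separately. With such names counted once, 447 names remain, for which the shares were not counted. The family names hsa-miR-101-3p, efu-miR-101, cfa-miR-101 and mmu-miR-101c were among the 144, and mmu-miR-101b-3p and rno-miR-101b-3p were among the 379, although in TB replicate 1 the interval of mmu-miR-101b-3p (0.962 to 3.45 RPM) included the values of TB replicates 2 and 3.

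For mmu-miR-101b-3p the 5 nearest were rno-miR-122b, cli-miR-21-3p, aca-miR-99b-5p, bta-miR-148d and gga-miR-458b-5p, with correlations of 0.935 to 0.959. All had their highest value in CR replicate 2, on which these correlations rest. rno-miR-122b, a name of the liver miRNA miR-122, had 1.58, 243 and 4.50 RPM in CR, against 4.90, 2.68 and 1.11 RPM in TB. cli-miR-21-3p, from the arm opposite the mature miR-21, had 5.88, 63.3 and 4.80 RPM in CR, against 17.5, 7.50 and 7.10 RPM in TB.

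**Figure D5:**
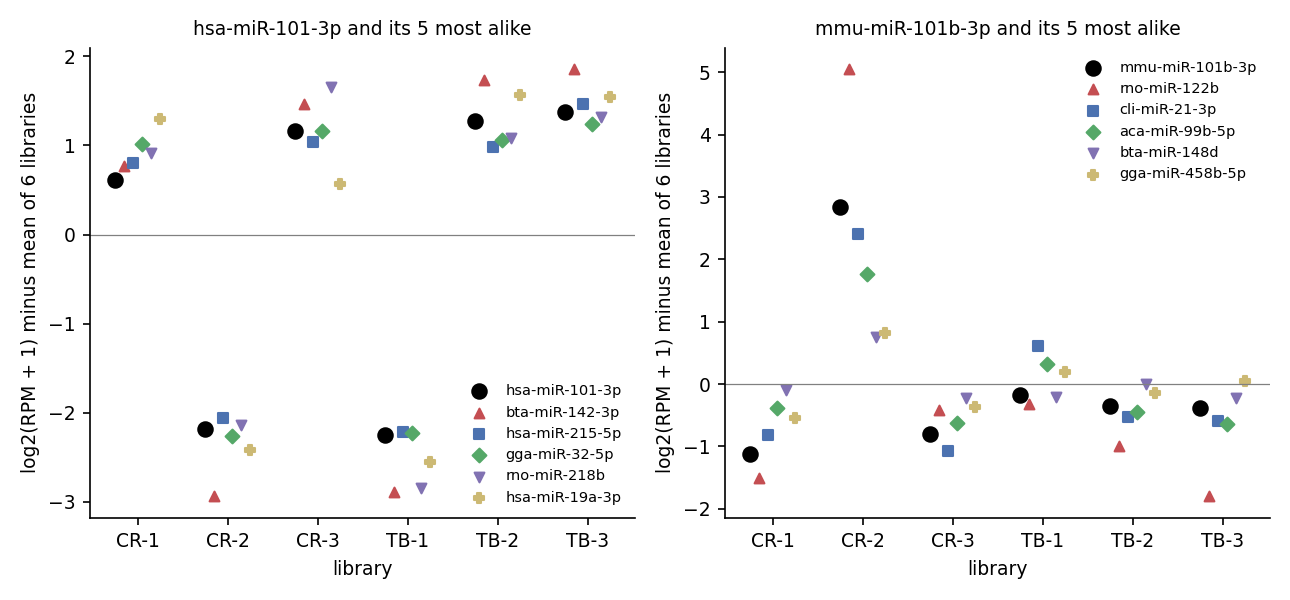
Log2(RPM + 1) minus its mean over the 6 libraries (y axis) in each library (x axis) for hsa-miR-101-3p with its 5 most alike miRNAs (left) and mmu-miR-101b-3p with its 5 (right), 1 point for each name and library. On the left the points of CR-2 and TB-1 all lie below 0 and the others above, and on the right the points of CR-2 are the highest.

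Of 4 other miRNAs known to repress EZH2 in mammals, all 4 had their highest values in CR replicate 2 and TB replicate 1, where 57.3% of all tested names also had theirs. Only 2 of the 4 had enough reads to be tested. gga-miR-26a-5p had 10440, 17513 and 3104 RPM in CR, against 18401, 5567 and 3372 RPM in TB. cgr-miR-214-3p, a miRNA of mesenchymal cells, had 22.2, 1518 and 13.6 RPM in CR, against 671, 22.8 and 16.2 RPM in TB. hsa-miR-26b-5p stayed at or under 2.67 RPM and mmu-miR-138-5p at or under 1.05 RPM, so that their order rests on few reads. With all 662 names tested, 0 of these passed the test between CR and TB.

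Among miRNAs whose 5′ start resembles that of miR-101 in human, mmu-miR-199a-3p had 218, 500.4 and 163 RPM in CR, against 391, 277 and 187 RPM in TB, and mdo-miR-199b-3p differed from it by 1 read. mmu-miR-144-3p, from the erythroid miR-144 gene, had 28 reads in all and none in CR replicate 2 or TB replicate 1. Thus mmu-miR-199a-3p was highest where hsa-miR-101-3p was lowest, in CR replicate 2 and TB replicate 1. Of all tested names, 57.3% were also highest there.

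Markers of cell types went both ways in CR replicate 2 and TB replicate 1, where 21.8% of all tested names were lowest and 57.3% highest. Of the 7 epithelial miRNAs, 3 (miR-192-5p, miR-194-5p and miR-215-5p) were lowest in CR replicate 2 and TB replicate 1 and 2 (miR-200b-3p and miR-429) were highest. Of the 3 smooth muscle miRNAs, miR-143-3p was lowest and 2 were highest. Of 4 leukocyte miRNAs, both arms of miR-142 were lowest and miR-155-5p was highest, with a summed level of 155 (CR replicate 2) to 422 RPM in CR and 67.1 (TB replicate 1) to 513 RPM in TB, and miR-223-3p had 1 read in all. The erythroid hsa-miR-451a had 53.4, 46.0 and 29.5 RPM in CR, against 24.2, 19.4 and 37.7 RPM in TB, and 2 arms of miR-144 were lowest in CR replicate 2 and TB replicate 1. The order of these arms rests on few reads, 28 for miR-144-3p and 111 for miR-144-5p in all. For miR-144-3p the count of 0 in CR replicate 2 allows up to 1.999 RPM, more than any other library had. The summed level of the pancreatic miR-216a-5p and miR-217-5p was 1.40 to 15.3 RPM in CR and 0.998 to 45.7 RPM in TB, highest in CR replicate 2 and TB replicate 1. The hepatocyte miRNA miR-122-5p (oha-miR-122-5p) had 328 RPM in CR replicate 2, against 1.55 to 7.36 RPM elsewhere. The part of these cell types in the levels of miR-101 was not tested.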

How the data were processed

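Small RNA of the duodenum was measured in 3 CR and 3 TB libraries, made with the TruSeq small RNA kit on an Illumina HiSeq platform. The labels describe RNA of 20–30 nt cut from a gel. The authors scaled the reads of each of 1568 miRNA names to a common library sum and deposited them as RPM (reads in every 1000000) in a column headed TPM. This unit was read from the values, since each library sums to 1000000 and 100% of the values are whole multiples (within 0.05) of the value of 1 read, whereas the methods name FPKM. The aligner, the genome build and the read filter are not given in the sources used here. Reads were recovered from these steps, with sums over all names of 1500905 to 11395209 per library.

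CR was compared with TB by limma 3.58.1 (lmFit, eBayes with trend) on log2(RPM + 1), on 662 names (minimum of 10 reads in 3 or more of the 6 libraries), with Benjamini-Hochberg adjustment over all of them. edgeR 4.0.16 and DESeq2 1.42.0 on the recovered reads were alternatives. R 4.3.3, Python 3.11.15, pandas 2.3.3, numpy 2.4.6, scipy 1.17.1 and matplotlib 3.10.9 were used. Scripts were tested on simulated data. Intervals are exact (Poisson, Clopper-Pearson, 95%), a count of 0 allows up to 3 reads, and both cover counting error only.

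The members and lists were chosen with earlier results of these data known. Named are all family names, the members of the lists (the matched name with the highest mean, with the arm where a name gives it) and the 5 miRNAs most like hsa-miR-101-3p and mmu-miR-101b-3p. Mature sequences and genome positions were not analysed here, so no name was added for a similar sequence. Other alternatives were scalings, pseudocounts, filters, a replicate block, left-out libraries and a term for CR replicate 2 and TB replicate 1.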

Additional observations from a re-analysis of the deposited data

How the results depend on the processing

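The number of names with an adjusted p under 0.05 was 0 in 18 of 19 alternatives and 5 in limma with a term for CR replicate 2 and TB replicate 1 against the other libraries, none of them of the miR-101 family. It was 0 in every fit that left out 1 library. For hsa-miR-101-3p the log2 fold change kept its sign in 16 of 19 alternatives and ran from -1.46 to 0.76 with 1 library left out. For mmu-miR-101b-3p it kept its sign in 16 of 18, ran from -0.66 to 1.32 with 1 library left out, and was -0.60 without both CR replicate 2 and TB replicate 1. Neither passed the threshold in any of them. In limma, filters on names, the replicate block and the term for CR replicate 2 and TB replicate 1 cannot change the log2 fold change of a name. They gave the same -0.27 for hsa-miR-101-3p and, where it was fitted, 0.61 for mmu-miR-101b-3p. These alternatives are included in the counts of kept signs, which therefore overstate how stable the signs were. Scaling with TMM moved the median log2 fold change of all tested names from 0.05 to -0.11, hsa-miR-101-3p to -0.46 and mmu-miR-101b-3p to 0.26. With a mean of at least 100 RPM required, mmu-miR-101b-3p could not be fitted.

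With the replicate block the log2 fold changes were -0.27 and 0.61 and 0 names passed. Deviations from the group means of same-numbered libraries had correlations of -0.80, -0.91 and 0.91, and those of CR replicate 2 with TB replicate 1 had 0.93. CR replicate 2 and TB replicate 1 dominate the deviations and carry different numbers. These correlations therefore cannot tell whether the replicate numbers pair the libraries. The block changed no call. The term for both libraries in edgeR was added after seeing the data. In limma the term was planned, but it too rests on libraries picked because they stood apart in these same data. Values of mmu-miR-101b-3p rest on 89 reads in all and those of hsa-miR-101-5p on 40, which limits what can be seen for rare names, above all in CR replicate 2.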

Other observations

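The place of CR replicate 2 among all 662 tested names is given as a description, since the family was selected on these values. mmu-miR-101b-3p had a log2 difference on log2(RPM + 1) of 3.95 in CR replicate 2 over CR replicate 1, with 89 names as high or higher, of 3.64 over CR replicate 3, with 163 names, and of 3.01 over TB replicate 1, the library most like it, with 7 names. These counts include the name itself and the identical rno-miR-101b-3p. hsa-miR-101-3p had log2 differences of -2.79 in CR replicate 2 over CR replicate 1, with 32 names as low or lower, of -3.35 over CR replicate 3, with 18 names, and of 0.07 over TB replicate 1. In TB replicate 1 they were -3.52 over TB replicate 2, with 22 names as low or lower, and -3.62 over TB replicate 3, with 26 names. These comparisons are between single libraries and were chosen after the values were seen.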
